A study of Homo sapiens with 8 samples.

Results

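The genes ZIC1, ZIC2, ZIC4 and ZIC5 were followed through neural differentiation of human pluripotent stem cells before and after WNT3A was added. They were taken by their gene names and are 4 of the 35940 gene symbols in the expression table. The cells were ESI017, an established human embryonic stem cell line of wild type genotype. All groups shared the same start: 30000 cells per cm2 were plated, kept for 24 h in mTeSR1 (a medium for pluripotent cells) with ROCK inhibitor, and then changed to the neural induction medium N2B27, which held 10 µM SB and 100 nM LDN, compounds given in the labels by these short names. Recombinant human WNT3A at 300 ng/mL was added at 34 h of differentiation, and the labels call the treatment a posterior neural fate differentiation. RNA was collected at 34, 42, 50 and 72 h, which are 0, 8, 16 and 38 h after that addition, with 2 libraries at each time point. The second replicate is described as an independent biological replicate, and its number is also the batch in the labels. No series of cells without WNT3A was analysed here, so elapsed time and WNT3A cannot be told apart in any comparison with 34 h.

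ZIC proteins are nuclear factors with C2H2 zinc fingers, close relatives of the GLI proteins that act in hedgehog signalling. They are known for work in the early neural plate, the dorsal neural tube, the neural crest and the cerebellum. ZIC2 is expressed in pluripotent cells and in early neural tissue, and its loss in people causes holoprosencephaly. ZIC1 marks dorsal neural tissue and the neural plate border, and deletions that take ZIC1 with ZIC4 have been linked to Dandy-Walker malformation. ZIC5 has been studied in neural tube closure and neural crest formation.

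Levels are in TPM, a unit of relative transcript abundance that accounts for transcript length, so different genes can be set side by side. The libraries had 13860 to 14004 genes at 1 TPM or more, and their numbers of reads are unknown. A gene was tested where at least 2 of the 8 libraries had 1 TPM or more, which kept 14908 genes. POU5F1, a defining pluripotency factor, went from a mean of 1159 TPM (34 h) to 371 TPM (72 h), and SOX2, shared by pluripotent and neural progenitor cells, from 217 to 340.4 TPM. Because the samples are bulk RNA, fewer cells expressing a gene and less RNA of it per cell cannot be told apart.

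The 4 genes form 2 neighbouring pairs on chromosomes 13 and 3. In GENCODE release 29 on GRCh38, ZIC5 (ENSG00000139800) lies on chromosome 13 from 99962964 to 99971909 on the minus strand and ZIC2 (ENSG00000043355) from 99981772 to 99986773 on the plus strand. ZIC4 (ENSG00000174963) lies on chromosome 3 from 147386046 to 147406860 on the minus strand, and ZIC1 (ENSG00000152977) from 147393422 to 147510293 on the plus strand, so the annotated spans of ZIC1 and ZIC4 overlap. The RefSeq start of ZIC1 lies at 147409365, and by the RefSeq starts used for the sequences the 2 genes of each pair point away from each other. The counting is not stated to use strand, and without strand, reads from the overlapping stretch cannot be assigned to one gene of the pair. Few of their sequences recur elsewhere in the same orientation: of the distinct 31-base words in the annotated transcripts, 0.28% for ZIC1, 0.94% for ZIC2, 0.02% for ZIC4 and 0.65% for ZIC5 also occurred in transcripts of any other gene. Words of opposite strands were not compared, so these shares do not cover the overlap of ZIC1 and ZIC4.

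The upstream sequences of the facing starts are shown because the pairs are compared below by how their 2 genes move. Each is the 250 bases before the RefSeq start that lies nearest to the partner gene, from GRCh38.p14, read 5′ to 3′ on the gene's own strand, with CG dinucleotides in capitals. They are chr13:99981534-99981783 (plus) for ZIC2, chr13:99971910-99972159 (minus) for ZIC5, chr3:147409115-147409364 (plus) for ZIC1 and chr3:147406544-147406793 (minus) for ZIC4.
ZIC2: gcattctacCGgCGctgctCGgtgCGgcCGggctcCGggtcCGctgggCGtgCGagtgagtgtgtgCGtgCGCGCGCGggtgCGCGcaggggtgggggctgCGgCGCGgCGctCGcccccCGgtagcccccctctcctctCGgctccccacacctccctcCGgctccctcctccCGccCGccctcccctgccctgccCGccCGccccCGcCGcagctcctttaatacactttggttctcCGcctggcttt
ZIC5: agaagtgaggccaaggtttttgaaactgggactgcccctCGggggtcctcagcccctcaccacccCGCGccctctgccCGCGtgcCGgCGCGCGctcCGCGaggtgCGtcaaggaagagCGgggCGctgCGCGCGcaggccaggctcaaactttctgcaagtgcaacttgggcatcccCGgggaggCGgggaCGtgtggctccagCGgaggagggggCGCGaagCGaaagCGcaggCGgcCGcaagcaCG
ZIC1: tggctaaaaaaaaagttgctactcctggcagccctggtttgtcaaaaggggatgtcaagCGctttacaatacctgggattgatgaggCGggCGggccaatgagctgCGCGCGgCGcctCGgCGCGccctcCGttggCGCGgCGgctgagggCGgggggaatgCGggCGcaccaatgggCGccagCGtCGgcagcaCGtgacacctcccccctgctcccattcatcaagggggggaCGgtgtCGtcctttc
ZIC4: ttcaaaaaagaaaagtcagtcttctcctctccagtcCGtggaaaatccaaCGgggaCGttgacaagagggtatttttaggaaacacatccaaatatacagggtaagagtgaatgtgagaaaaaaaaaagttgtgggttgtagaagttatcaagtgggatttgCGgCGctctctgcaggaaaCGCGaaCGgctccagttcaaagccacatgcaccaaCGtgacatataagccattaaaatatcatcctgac

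The facing starts were 9875 bases apart for ZIC2 and ZIC5 and 2822 bases apart for ZIC1 and ZIC4. Counts of CG in these windows were 31 for ZIC2, 28 for ZIC5, 23 for ZIC1 and 9 for ZIC4, beside a median of 11 over 34943 RefSeq windows of the same length. The share of G and C was 75.6%, 70.4%, 64.4% and 42.8% in that order, beside a median of 58.0%. ZIC4 has 3 further RefSeq starts, whose windows held 2, 7 and 16 CG, and the 2 further ZIC5 starts had 12 and 21. Both strands were searched for CTTTGAT of TCF/LEF factors, ACAATGG of SOX factors, ATGCAAA as part of the POU octamer, CAGCAGG of ZIC proteins, TATAAA as part of the TATA box and CCAAT of the CCAAT box, none of which contains another. These occurred in 2.27%, 2.63%, 3.95%, 8.48%, 10.75% and 32.04% of all windows. In the windows of the 4 genes the 1 match was CCAAT, which ZIC1 held at 2 places, starting 155 and 80 bases before its start.

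ZIC2 was the abundant member throughout and the 1 member that rose. The 34 h libraries had 167 (replicate 1) and 175 TPM (replicate 2) of ZIC2, followed by 162 and 181 TPM at 42 h. The 42 h libraries enclosed the 34 h libraries, so no shift was visible in the first 8 h. ZIC2 then reached 212 and 216 TPM (50 h), and finally 303 and 279.7 TPM (72 h). Both 50 h libraries lay above all 4 earlier ones, and both 72 h libraries lay above both at 50 h. Ranked among the 14908 tested genes by TPM, ZIC2 moved from places 856 and 772 at 34 h to places 404 and 435 at 72 h.

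**Figure D1:**
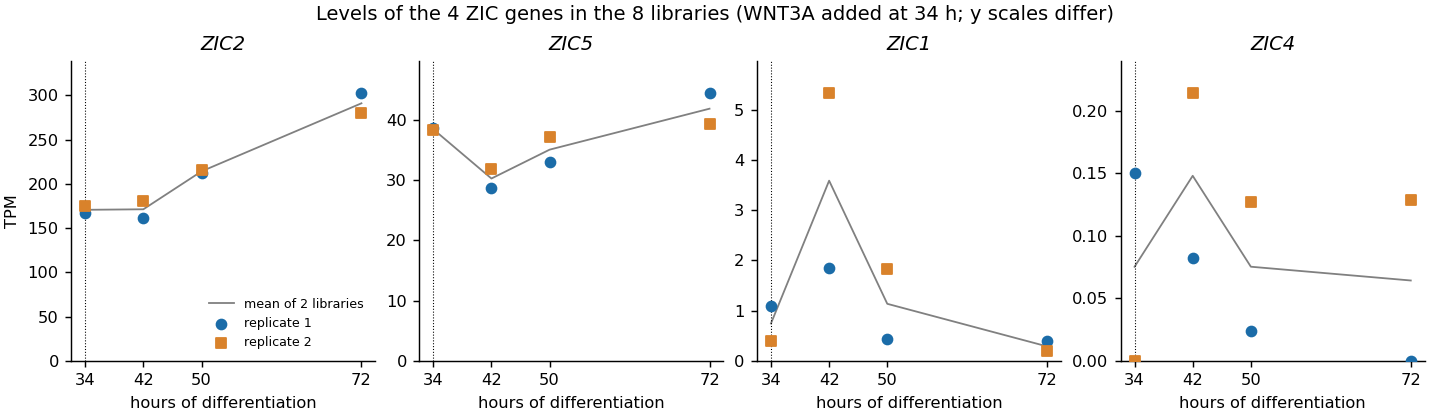
TPM of each gene (vertical axes, scaled per panel from 0) against hours of differentiation for the 8 libraries; points are libraries, coloured by replicate number, the grey line joins the means of 2 and the dotted line marks the addition of WNT3A at 34 h. ZIC2 stands at 279.7 and 303 TPM at 72 h, ZIC5 stays between 28.7 and 44.5 TPM, ZIC1 peaks at 5.33 TPM in 1 library at 42 h and ZIC4 does not pass 0.214 TPM.

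The test asked how each gene moved against 34 h and between successive time points, on the scale of log2(TPM + 1), which understates changes of genes near 1 TPM. From 34 h to 72 h ZIC2 rose from 171 ± 5.46 to 291 ± 16.2 TPM (SD, n = 2), a log2 change of 0.77 ± 0.09 (SE) or 1.70-fold, with a limma adjusted p of 0.00065. The 95% interval of that change was 0.56 to 0.97, and it was 0.86 within replicate 1 and 0.68 within replicate 2. ZIC2 was the 1 of 3 tested members called in this comparison, beside 24.0% of all tested genes, 12.7% as higher, so the count says nothing particular of the family. The calls split into 1900 higher and 1678 lower, and into 1552 and 2003 after rescaling by trimmed means, under which the ZIC2 rise was still called. In size the change was moderate, since 17.5% of tested genes changed more in either direction.

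No ZIC2 change was measured in the first 8 h. At 42 h against 34 h its log2 change was 0.00 ± 0.09, with a 95% interval of -0.20 to 0.21. By 50 h the change against 34 h was 0.33 ± 0.09, and did not pass (limma adjusted p 0.0713, unadjusted 0.00587). Between 50 h and 72 h ZIC2 rose by 0.44 ± 0.09, with 0.51 and 0.37 within the replicates (limma adjusted p 0.0223), where 7.33% of tested genes were called, 2.92% as higher. That last call was lost with the compared time points fitted alone (0.0757), without a variance trend (0.0790) and without any 1 library of 50 or 72 h (0.0738 to 0.161). Tested over all 4 time points at once, ZIC2 changed (limma moderated F-test, adjusted p 0.00173), beside 17.4% of all tested genes.

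ZIC5, the neighbour of ZIC2, was present at a lower level. Replicates 1 and 2 had 38.6 and 38.3 TPM (34 h), 28.7 and 31.9 (42 h), 33.0 and 37.2 (50 h), then 44.5 and 39.3 (72 h). Both 42 h libraries were below all others, and both 72 h libraries were above all others, with a range over the course of only 28.7 to 44.5 TPM. No ZIC5 difference passed the threshold. Its log2 change was -0.34 ± 0.12 at 42 h against 34 h (limma adjusted p 0.249, unadjusted 0.0218), with -0.42 and -0.26 within the replicates. At 72 h against 34 h it was 0.12 ± 0.12, with a 95% interval of -0.16 to 0.39 (limma adjusted p 0.517), and it was 0.03 without replicate 1 and 0.20 without replicate 2 of 72 h. Over the 4 time points the F-test gave an adjusted p of 0.1001 in limma.

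**Figure D2:**
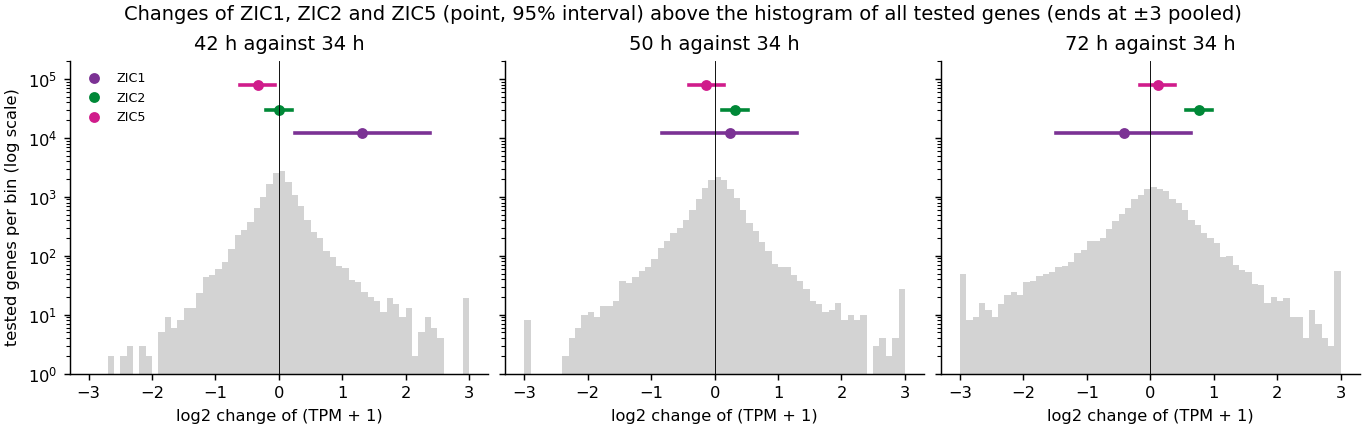
Log2 changes against 34 h (horizontal axis) of ZIC1, ZIC2 and ZIC5, as points with 95% intervals, above histograms of all 14908 tested genes (vertical axis, genes per bin on a log scale; values beyond 3 in size are pooled in the end bins). ZIC2 goes from 0.00 at 42 h to 0.33 at 50 h and 0.77 at 72 h, ZIC5 stays within 0.34 of no change, and the intervals of ZIC1 are the widest of the 3 genes.

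The neighbours ZIC2 and ZIC5 did not keep a fixed ratio. In TPM, ZIC2 exceeded ZIC5 by 4.32 and 4.56 times in the 34 h libraries, 5.65 and 5.66 times at 42 h, 6.43 and 5.82 times at 50 h, and 6.80 and 7.11 times at 72 h. Each later time point lay wholly above the one before it. The log2 ratio of (TPM + 1) was 2.12 ± 0.05 at 34 h, 2.46 ± 0.01 at 42 h, 2.58 ± 0.10 at 50 h and 2.77 ± 0.04 at 72 h (SD, n = 2). Its difference over the 4 time points had an exact permutation p of 0.00952, or 0.0190 adjusted over the 2 pairs. That p came from an F statistic, which has no direction, and is the smallest that 8 libraries in 4 groups of 2 can give. The first part of this shift, from 34 h to 42 h, came with lower ZIC5 values at an even ZIC2 level, and in the later part both genes had higher means, ZIC2 going from 171 to 291 TPM and ZIC5 from 30.3 to 41.9 TPM. With time labels permuted only within each replicate number, the replicate block, p was 0.0417, the smallest that its 24 arrangements allow, and 0.0833 adjusted over the pairs. The adjusted p was also 0.0571 without replicate 2 at 42 h and 0.0762 without replicate 2 at 72 h.

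**Figure D3:**
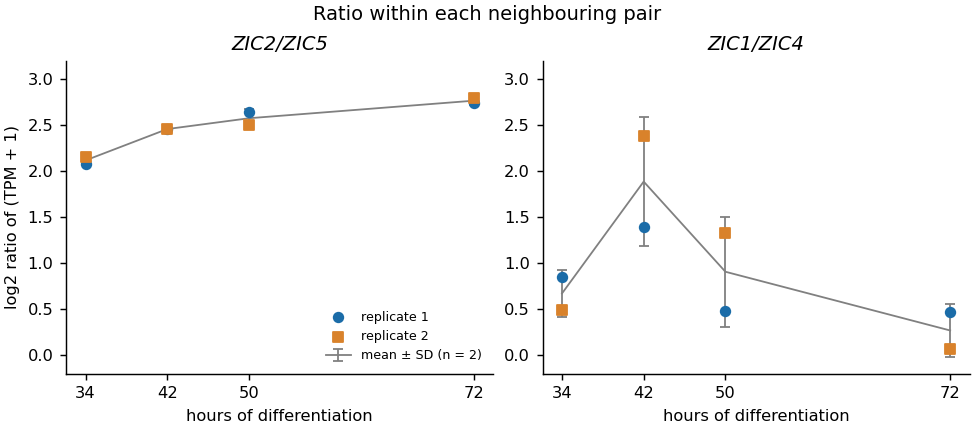
Log2 ratio of (TPM + 1) within each neighbouring pair (vertical axis) against hours of differentiation; points are libraries by replicate number, and lines and bars give the mean ± SD of 2. ZIC2/ZIC5 goes from 2.12 at 34 h to 2.77 at 72 h with small bars, while ZIC1/ZIC4 has its highest mean, 1.89, at 42 h with wide bars.

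ZIC1 and ZIC4 were near the floor of the table in these cells. ZIC1 values in replicates 1 and 2 were 1.08 and 0.402 TPM (34 h), 1.85 and 5.33 (42 h), 0.434 and 1.84 (50 h), then 0.386 and 0.184 (72 h). The 2 libraries of 42 h held the highest values of the 8, but they lay far apart, and replicate 1 at 42 h barely exceeded replicate 2 at 50 h. Within replicates 1 and 2 the log2 change from 42 h to 50 h was -0.99 and -1.16, which did not pass (limma adjusted p 0.532). ZIC1 reached 1 TPM in 4 of 8 libraries and passed the filter. Its standard deviation between replicates, 0.579 on the log2 scale, exceeded that of 95.7% of tested genes, against 0.0732 for ZIC2 and 0.1002 for ZIC5, and the median gene had 0.169.

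No ZIC1 difference passed. Its log2 change at 42 h against 34 h was 1.31 ± 0.46, with 0.45 within replicate 1 and 2.18 within replicate 2 (limma adjusted p 0.249, unadjusted 0.0216). It was 0.74 without replicate 2 at 42 h and 2.08 with a pseudocount of 0.1. Thus 0 of 3 tested members were called at 42 h against 34 h by limma, where 2.58% of genes were, and 2 of the 3, ZIC1 and ZIC5, had an unadjusted p under 0.05, as did 13.9% of all tested genes. At 50 h against 34 h the count was also 0, beside 6.26% of genes, with ZIC2 under an unadjusted 0.05 beside 20.6% of all tested genes. From 42 h to 50 h it was 0 again, beside 0.0939% of genes, with ZIC1 and ZIC2 under an unadjusted 0.05 beside 9.4% of all tested genes. The interval of ZIC1 at 72 h against 34 h ran from -1.48 to 0.65, which is too wide to separate a lower level from none.

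For ZIC4, replicate 1 had 0.150 TPM (34 h), 0.0819 (42 h) and 0.0237 (50 h) and was listed at 0 (72 h). Replicate 2 was listed at 0 (34 h), then had 0.214 (42 h), 0.127 (50 h) and 0.128 TPM (72 h). No library reached 1 TPM, so ZIC4 did not enter the main test. With the filter on low values removed, its adjusted p in limma lay between 0.850 and 1 over the 5 comparisons. With the number of reads unknown, values this low cannot be told from 0.

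Within this pair the log2 ratio of (TPM + 1) was 0.67 ± 0.26 at 34 h, 1.89 ± 0.70 at 42 h, 0.91 ± 0.60 at 50 h and 0.27 ± 0.28 at 72 h (SD, n = 2). It rests almost wholly on ZIC1, and its difference over time did not pass (exact permutation p 0.0762, also after adjustment over the 2 pairs). Without replicate 1 at 42 h it passed, with an adjusted p of 0.0476.

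Of the summed TPM of these 4 genes, ZIC2 made up 80.7% and 81.9% at 34 h and 87.1% and 87.6% at 72 h. ZIC5 made up 18.7% and 18.0% at 34 h and 12.8% and 12.3% at 72 h, and ZIC1 reached at most 2.44%, in replicate 2 at 42 h. The order ZIC2, ZIC5, ZIC1, ZIC4 held in each of the 8 libraries.

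Likeness of course was described by the Pearson correlation of log2(TPM + 1) over the 8 libraries, which share 4 time points and so are not independent. Among 2275 genes that changed over time and reached 5 TPM, those most like ZIC2 were FHOD3 (r = 0.991), ZNF521 (0.991), NRP2 (0.990), SEMA3E (0.988) and TTLL1 (0.987). NRP2, a semaphorin and VEGF co-receptor, had mean levels of 132, 129, 185 and 263 TPM in time order, and ZNF521, a zinc finger factor, had 16.9, 16.7, 28.9 and 58.9 TPM. These genes share the even level up to 42 h and the later increase. ZIC5 had r = 0.661 with ZIC2. Of the other 14907 tested genes 20.6% were more like ZIC2 than ZIC5 was, and 6% were more like ZIC5 than ZIC2 was.

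The genes most like ZIC5 were ABCA1 (r = 0.950), SSBP2 (0.924), TMCO3 (0.924), CACNA1A (0.915) and AJUBA (0.898), each lowest at 42 h. ABCA1, a cholesterol exporter, had means of 10.0, 3.47, 7.03 and 14.5 TPM in time order. Those most like ZIC1 were KIAA1147 (r = 0.928), SPIDR (0.886), MAP3K8 (0.880), ABLIM1 (0.880) and RBMS1 (0.873), each highest at 42 h. ZIC1, with its low and scattered values, had r = -0.517 to ZIC2 and -0.590 to ZIC5 over the 8 libraries.

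Other protein coding genes around the pairs were examined to show where ZIC2 stood in its region. Within 1000 kb of ZIC2 and ZIC5, 9 other such genes were annotated and 7 were tested. At 72 h against 34 h 3 of the 7 rose and 1 fell, beside 24.0% of all tested genes called and 12.7% called higher. Those that rose were CLYBL, a mitochondrial lyase gene, from 12.1 to 24.6 TPM (log2 change 0.96 ± 0.16, limma adjusted p 0.0036), PCCA, a propionyl-CoA carboxylase subunit, from 29.5 to 41.6 TPM (0.48 ± 0.14, 0.0354), and TMTC4 from 13.4 to 22.3 TPM (0.69 ± 0.14, 0.0102). DOCK9 fell from 21.4 to 6.47 TPM (-1.60 ± 0.29, limma adjusted p 0.00545). UBAC2 and TM9SF2 had log2 changes of -0.01 and 0.02, and GGACT had 0.71 ± 0.42 (limma adjusted p 0.263). Measured from start to start, CLYBL and PCCA were 365 and 107 kb away. Around ZIC1 and ZIC4, 3 other genes were annotated and 1 was tested, PLSCR1, whose mean was 27.98 TPM (34 h), 36.2 (42 h), 30.6 (50 h) and 22.6 (72 h), called over the 4 time points (limma adjusted p 0.0279) but not between 34 h and 72 h (0.107).

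**Figure D4:**
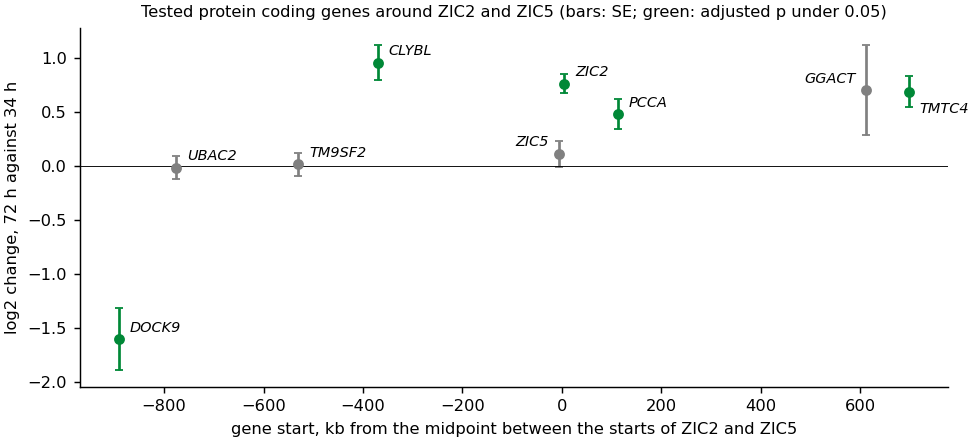
Log2 change at 72 h against 34 h (vertical axis, bars are SE) of the tested protein coding genes around ZIC2 and ZIC5, placed by the distance of their start from the midpoint between the 2 ZIC starts in kb (horizontal axis); green points had a limma adjusted p under 0.05. ZIC2 at 0.77 and ZIC5 at 0.12 differ although they are neighbours, and CLYBL, PCCA and TMTC4 lie above 0 while DOCK9 lies at -1.60.

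The list of GLI and GLIS genes was taken by symbol. It holds relatives of ZIC genes and also GLI4, a zinc finger gene of another group despite its name, and its tested genes were less abundant than ZIC2. Of the list of 7, 5 were tested, and at 72 h against 34 h 2 rose, 0 fell and 3 did not pass, beside 24.0% of all tested genes called and 12.7% called higher. The median log2 change was 0.27 beside 0.06 over all tested genes. The 2 were GLI3, mainly a repressor of hedgehog targets, from 8.73 to 25.6 TPM (1.496 ± 0.291, limma adjusted p 0.00799), and GLI4, from 14.6 to 24.9 TPM (0.75 ± 0.19, 0.0248). At 42 h against 34 h 0 of the 5 were called by limma, beside 2.58% of all tested genes, and GLI3 alone had an unadjusted p under 0.05, beside 13.9%. GLI1, a hedgehog target, had a log2 change of -0.33 ± 0.28 at 72 h (limma adjusted p 0.431).

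Of 13 hedgehog pathway genes 11 were tested. The counts of this list and those that follow stand beside 2.58% of all tested genes called at 42 h and 24.0% at 72 h, 12.7% as higher, with all-gene medians of 0.01 and 0.06. These counts include genes that passed the filter only through the time points where they were high, whose direction was thereby fixed, so the counts are descriptions and support nothing. At 42 h 2 rose, among them PTCH1, the receptor and a target of the pathway, from 16.5 to 38.1 TPM (log2 change 1.17 ± 0.20, limma adjusted p 0.0230). At 72 h against 34 h 7 rose and 2 fell, with a median of 0.70, among them NKX6-1, at 0.065 TPM at 34 h, and HHIP, under 1 TPM later. The other gene that fell was FOXA2, a hedgehog target in the floor plate, from 12.7 to 0.72 TPM. BOC, a co-receptor, rose by 1.67 ± 0.19 (limma adjusted p 0.000621). HHIP, a secreted inhibitor, went from 2.28 to 0.0556 TPM. It passed the filter only through 34 h, so its direction was fixed and no p is given.

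Dorsal neural tube and neural plate border genes share expression domains with ZIC1 in the embryo. Of the list of 15, 5 were tested and all 5 rose at 72 h against 34 h, with a median log2 change of 2.22. Of the 5, MSX1, MSX2 and PAX3 had a mean under 1 TPM at 34 h. OLIG3, a dorsal progenitor factor, rose from 6.53 to 180.1 TPM (4.58 ± 0.17, limma adjusted p 3.395e-06) and ZNF703 from 1.31 to 9.64 TPM (2.22 ± 0.24, 0.000518). PAX3 went from 0.134 to 4.53 TPM (2.29 ± 0.26). It passed the filter only through 72 h, so its direction was fixed and no p is given. ZIC1 at 72 h had 0.386 and 0.184 TPM beside these genes.

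Neural plate genes had 11 tested members of 14. At 72 h against 34 h 7 rose, 1 fell and 3 did not pass, with a median of 0.94, and PAX6 among the 7 had a mean under 1 TPM at 34 h. SOX2, at a level near that of ZIC2, rose by 0.64 ± 0.08 (limma adjusted p 0.00117), SOX1 rose by 4.16 ± 0.19 (6.531e-06), and OTX2, an anterior factor, fell from 159 to 35.3 TPM (0.000218). At 42 h 2 of the 11 rose, 1 of them LHX2 from 0.481 TPM, and 1 fell. Of 10 pluripotency genes, all tested, 0 rose and 6 fell at 72 h, with a median of -0.90. WNT response genes, all 10 tested, had 7 raised at 42 h and 8 at 72 h, with medians of 2.33 and 1.83, and 2 of these at both times, SP5 and RNF43, had a mean under 1 TPM at 34 h. Of the 9 caudal progenitor genes 8 were tested, of which 6 rose at 42 h and 2 at 72 h, with medians of 2.40 and 0.44. Of the 6, CDX1, CDX2, EVX1 and TBXT had a mean under 1 TPM at 34 h, as did WNT8A, 1 of the 2 at 72 h.

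Markers of other cell types that can express ZIC genes were summed in each library. Neural crest markers (5 genes) summed to 11.3 to 12.3 TPM at 34 h, 7.26 to 9.17 at 42 h, 8.31 to 8.94 at 50 h and 10.1 to 12.2 at 72 h, and SOX10 lay between 2.00 and 3.66 TPM in all 8 libraries. Within that sum SNAI2 had a mean of 0.35 TPM at 34 h and 6.09 TPM at 72 h, while FOXD3, also known in pluripotent cells, had a mean of 4.57 TPM at 34 h and was listed at 0 in both 72 h libraries. SNAI2 passed the filter only through later time points and FOXD3 only through 34 h, so the directions of their differences were fixed and no p is given. Paraxial mesoderm markers (5 genes) summed to 0.508 to 1.18 TPM at 34 h and 1.77 to 2.55 TPM at 72 h, with MSGN1 listed at 0 in all 8. Neuron markers summed to 213 to 266 TPM at 34 h, 242 to 318 at 42 h and 183 to 215 at 72 h, nearly all of it TUBB3, whose difference at 72 h against 34 h was not called (limma adjusted p 0.209). DCX, a neuronal microtubule protein, rose over the same interval from 2.74 to 5.47 TPM (limma adjusted p 0.0273). STMN2 had means of 0.288 and 7.56 TPM and passed the filter only through later time points. Endoderm markers went from 13.3 to 15.3 TPM at 34 h to 6.93 to 8.08 TPM at 72 h with SOX17 at 0 throughout. Among them FOXA2 fell from 12.7 to 0.72 TPM (limma adjusted p 1.905e-05), and CXCR4, which other cell types also express, rose from 1.43 to 6.77 TPM (0.000922). Non-neural ectoderm markers went from 10.4 to 17.6 TPM at 34 h to 6.18 to 9.03 TPM at 72 h, with 4 of 5 genes at 0 in both 72 h libraries. The part of such cells in the ZIC2 rise was not tested. Mitochondrial genes held 8.70% to 11.2% of a library, and with them left out the ZIC2 rise from 34 h to 72 h was still called.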

How the data were processed

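Poly(A) RNA of ESI017 cells was sequenced as paired ends, per the labels' protocols, in 8 libraries, 2 per time point. The authors deposited TPM per Ensembl gene for all libraries in a single table. Salmon 1.9.0 and GRCh38 are named without a role in the submitters' processing notes; the annotation and any filter are not given in the sources used here. TPM keeps no read counts, so no counting interval was computed.

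Rows were summed by symbol (37951 rows, 35940 symbols; each ZIC gene had 1 row), filtered at 1 TPM in at least 2 libraries, taken as log2(TPM + 1) and fitted jointly with limma 3.58.1 in R 4.3.3, 1 mean per time point and a variance trend. Benjamini-Hochberg adjustment ran over all 14908 tested genes, with calls at an adjusted p under 0.05, two-sided. Pair ratios were tested by an exact permutation test over all assignments of libraries to time points. The limma contrast of 72 h against 34 h was tested on simulated data with log2 changes of 2 in size, and the permutation test on made-up values. Changes as small as that of ZIC2 were not simulated.

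The members, gene lists and the rule for named genes (members, list genes, the 5 genes most like each member, protein coding genes within 1000 kb) were chosen with earlier results of these data known. The motifs were chosen after the data were seen. The labels give the replicate number as the batch, so it pairs libraries across time points. Deviations of same-numbered libraries correlated across genes at 0.0949 (34 with 42 h), 0.195 (34 with 50 h) and 0.142 (42 with 50 h), and those of 72 h correlated with these 3 at -0.0445, -0.0779 and -0.104. The replicate block was an alternative, beside rescaling by trimmed means of log ratios, without weights, quantile normalization, other filters and pseudocounts, and leaving out each library.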

Additional observations from a re-analysis of the deposited data

How the results depend on the processing

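The rise of ZIC2 from 34 h to 72 h was called under all 18 alternatives, with changes of 0.69 to 0.82 and limma adjusted p-values of 0.00039 to 0.00994, and none of the differences of ZIC1 and ZIC5 passed under any alternative run; a mean of at least 5 TPM removes ZIC1. The change of ZIC2 from 50 h to 72 h, 0.44 without a variance trend and 0.44 with the compared time points alone, was no longer called there; leaving out a library gave 0.38 to 0.50. The shift of the ZIC2/ZIC5 log2 ratio from 34 h to 72 h was 0.65 with the replicate block, no longer called, and 0.61 to 0.69 without single libraries. That of ZIC1/ZIC4 was -0.60 to -0.20 without single libraries and -0.99 with a pseudocount of 0.1, against -0.40. The replicate block changed no other ZIC call. Under the block, 24 arrangements allow no p below 0.0417, which beside 0.125 for the other pair gives no adjusted p below 0.0833; leaving out a library leaves fewer samples. The cause of the other lost calls was not tested. Of the 5 genes most like ZIC1, ZIC2 and ZIC5, 1, 1 and 3 stayed among the first 5 by Spearman correlation, and 2, 5 and 3 within replicate numbers.

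Counts of all called genes, the background, moved by over 1.5 times as follows. With the compared time points alone, 384 became 171 (42 h against 34 h), 933 became 431 (50 h against 34 h), 1093 became 367 (72 h against 50 h) and 14 became 0 (50 h against 42 h). The 14 also became 8 without a filter, 24 at a mean of 5 TPM, 27 without a variance trend, 7 with the block and 4 with Ensembl rows apart. Without single libraries they were 161 at lowest for 384, 398 for 933, 1867 for 3578, 316 for 1093, 1 for 14 and 1118 for the 2587 genes changed at any time. The higher and lower calls at 50 h against 42 h, 9 and 5, became 9 and 10 after rescaling by trimmed means, 9 and 11 after quantile normalization and 9 and 8 without mitochondrial genes. With depth unknown, the precision of the low ZIC1 and ZIC4 values cannot be given.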
